A study of Mus musculus with 19 samples.

Results

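The genes described here are 8 markers used to recognise skeletal stem and progenitor cells: Thy1, Cd200, Pdgfra, Pdpn, Ly6a, Nes, Nt5e and Ctsk. They were chosen by name, and their levels were read from every probe set that the array's annotation table assigns to each of them alone. By this table's names, 7 of the 8 genes had such a probe set, 13 probe sets in all, among 18193 genes and 45101 probe sets on the array. Ly6a, the gene of the surface antigen Sca-1, was not analysed here. Of the 7 genes measured, 5 encode proteins of the cell surface. Nestin, the product of Nes, is an intermediate filament protein inside the cell, and cathepsin K, the product of Ctsk, is a protease of lysosomes that is also secreted, so the group is called progenitor markers below.

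Skeletal stem and progenitor cells of the growing limb give rise to cartilage, bone and stroma, and they are isolated by combinations of antigens because no known single antigen is specific to them. Several of these markers are also made by other cells: Thy-1 by T cells and neurons, podoplanin by lymphatic endothelium and basal keratinocytes, nestin by neural and perivascular cells, and cathepsin K by osteoclasts, in which it degrades bone collagen. PDGF receptor alpha is a receptor tyrosine kinase of mesenchymal cells, CD73 (Nt5e) is an enzyme that makes extracellular adenosine from AMP, and CD200 is a ligand that dampens myeloid cells through its receptor.

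The levels come from Affymetrix expression arrays of sorted mouse cells. Among the 19, 1 array was labelled as adult Thy+6C3+CD105+ cells, with no second array of its kind, and entered no test. Its source field names sternum and ear and its tissue field names limbs. The other 18 arrays were from mice at postnatal day 3, described in the protocol as GFP-labeled, whose fore and hind limbs were digested after pooling a litter. All 19 were labelled wild-type and carried the gate CD45-Ter119-Tie2-AlphaV+, which leaves out blood and Tie2+ cells and keeps cells with integrin alpha V. Within it, 3 more antigens gave 6 populations of 3 arrays each: Thy+6C3- cells, Thy-6C3+ cells and cells with neither antigen (Thy-6C3-), each kind divided into CD105+ and CD105- cells. Thy-6C3-CD105- cells are called triple-negative. Antibodies to CD200 were in the stain, but CD200 is in no population name. For replicates 2 and 3 of Thy-6C3+CD105- the title says Thy+ while the population field says Thy-, and the field decided the grouping. The labels do not say whether the 3 arrays of a population came from separate litters, so p-values measure the spread between these arrays, which may be technical.

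Gene positions are on GRCm38.p6. All levels are log2 expression levels after quantile normalization of the deposited values. A difference, or step, is the mean of the antigen-positive population minus that of the antigen-negative population with the other antigens held fixed, given with the SE of a limma fit over the 18 neonatal arrays. A gene was called at a Benjamini-Hochberg adjusted p under 0.05 over all 18193 genes of that comparison. Comparisons share populations, so their results are not independent of each other. In sorted bulk RNA, fewer cells of a type and less RNA per cell cannot be told apart. Arrays give no read depth, and 3 arrays a population limit the precision.

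Deposited medians of the 19 arrays ran from 5.60 to 6.02, and 2 arrays, Thy-6C3+CD105- replicate 2 and Thy+6C3-CD105- replicate 3, had the highest. Replicates of a population correlated over genes at r between 0.931 and 0.995, so none of these pairs held identical values. Control transcripts that are added to RNA before amplification divided the neonatal arrays into 11 with a high and 7 with a low level, and this division crossed the populations. Enpep, which encodes the 6C3 antigen, followed the population names and had population means of 10.84 and 10.97 in both 6C3+ populations and of 7.27 to 8.32 in the other 4. Eng, which encodes CD105, averaged 8.49, 8.49 and 8.64 in the CD105+ populations, against 7.90, 7.23 and 7.20 in the CD105- populations with the same Thy and 6C3 state, and none of these steps was called. Itgav, the gene of integrin alpha V, had population means between 10.53 and 11.14, and Ptprc, the gene of CD45, between 4.03 and 4.72. Tek, the gene of the gate antigen Tie2, rose in both Thy steps. Its levels were 5.70 to 6.10 on the Thy+ arrays, against 4.69 to 5.01 on the Thy- arrays, in the CD105+ step (1.11 ± 0.17, limma, adjusted p = 3.49e-04). In the CD105- step its population mean was 6.39 with Thy, against 4.87 without (1.51 ± 0.17, adjusted p = 1.45e-05). Tek was also called higher in Thy+ than in 6C3+ cells, by 1.16 ± 0.17 and 1.41 ± 0.17.

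Among the 6 neonatal populations, 6 of the 7 measured markers differed (moderated F-test, limma), where 10.1% of all genes did. Thy1, an antigen of the sort, is among these 6, and its difference follows from the sort. The adjusted p was 7.69e-11 for Thy1, 0.00139 for Ctsk, 0.00191 for Cd200, 0.00209 for Pdgfra, 0.00419 for Nes and 0.0229 for Pdpn. Nt5e, at 0.0548, was the marker that did not pass. The markers did not share an order of populations. Thy1 was high in both Thy+ populations, Cd200 was lowest there, Pdpn and Nes were highest in Thy+6C3-CD105- cells, and Ctsk and Nt5e had their highest means in the 6C3+ populations. Ctsk was lowest in the triple-negative population and its CD105+ counterpart, and so was Nes.

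In the order of the population means, most neighbours overlapped in their arrays. With 3 arrays a population, a lack of overlap is common among all genes. It held for 26.2% and 34.7% of them in the Thy steps (CD105+, then CD105-) and for 16.3% and 17.6% in the 6C3 steps. In the CD105 steps it held for 6.33% (Thy-6C3-), 24.8% (Thy+6C3-) and 6.21% (Thy-6C3+). For Cd200, from 9.18 ± 0.11 (SD, n = 3) in Thy-6C3-CD105+ cells to 6.78 ± 0.69 in Thy+6C3-CD105- cells, all 5 pairs of neighbours overlapped. Nt5e, from 10.52 ± 0.09 in Thy-6C3+CD105- cells down, had 1 gap, above Thy+6C3-CD105- cells at 9.42 ± 0.37. Pdpn and Nes each had 1 gap, between Thy+6C3-CD105- cells at the top (10.83 ± 0.35 and 8.59 ± 0.30) and Thy-6C3+CD105- cells next to them (9.53 ± 0.50 and 8.14 ± 0.17). Ctsk, from 12.59 ± 0.30 in Thy-6C3+CD105- cells down, had its gap between Thy+6C3-CD105+ cells, with arrays at 11.81, 11.98 and 12.21, and the triple-negative cells (11.56 ± 0.11). Pdgfra had 2 gaps. The first lay between Thy-6C3+CD105+ cells (12.02 ± 0.12) and Thy+6C3-CD105- cells (11.62 ± 0.27), and the second between Thy-6C3-CD105+ cells (11.55 ± 0.07) and the triple-negative cells (11.32 ± 0.05).

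**Figure D1:**
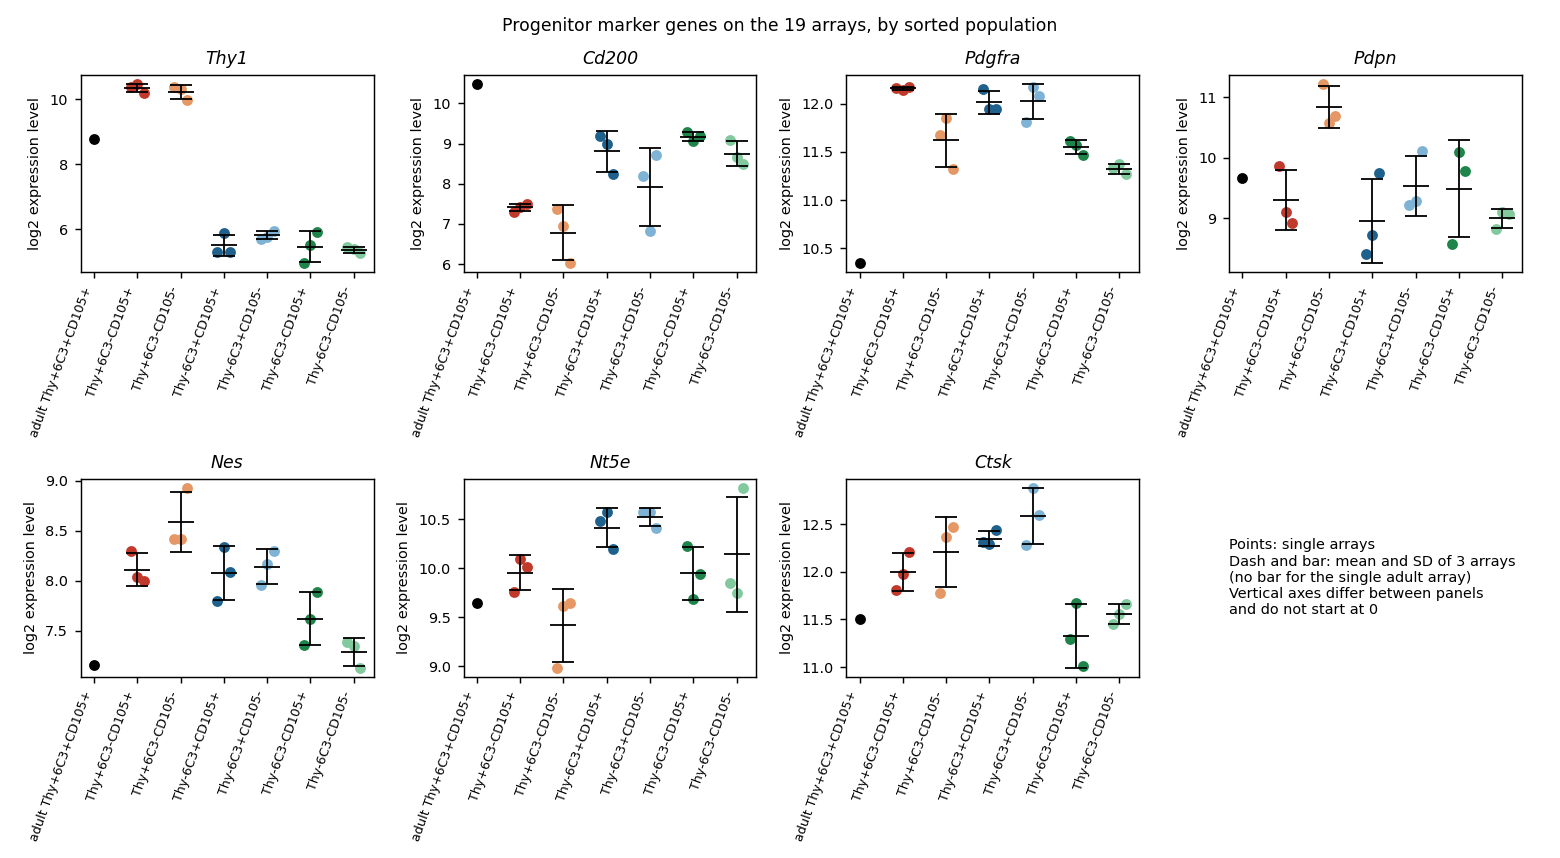
Log2 expression level (vertical axis, a scale of its own in each panel) of the 7 measured progenitor markers on the 19 arrays, by sorted population (horizontal axis), with points for arrays and a dash and bar for the mean and SD of 3 arrays. Thy1 stands at 9.99 or more in the neonatal Thy+ populations and at 5.95 or less in the other 4. Cd200 has its lowest population means in the neonatal Thy+ populations. Its highest level, 10.49, is on the adult array, which is labelled Thy+6C3+CD105+ and has Thy1 at 8.77. Ctsk lies at 11.78 or more on all arrays of the 4 neonatal populations with Thy or 6C3.

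The Thy step called 3 markers in 6C3-CD105+ cells, where 6.66% of all genes were called, and 5 markers in 6C3-CD105- cells, where 18% were. The 6C3 step called 1 marker in Thy-CD105+ cells, against 1.36% of all genes, and 3 markers in Thy-CD105- cells, against 2.74%. No marker was called in the 3 CD105 steps. Their background was 0.0055% of genes among the triple-negative cells and their CD105+ counterpart, 1.02% among those with Thy and 0% among those with 6C3. At an unadjusted p under 0.05, limma counted 0, 4 and 1 of the 7 markers in those 3 CD105 steps, beside 318, 4072 and 498 of all 18193 genes. Thy+6C3- cells set directly against Thy-6C3+ cells differed in 1 marker when both were CD105+ (2.59% of all genes) and in 2 when both were CD105- (2.24%). Without Thy1, an antigen of the sort, the counts were 2 and 4 for the Thy steps and 0 and 1 for the Thy+ against 6C3+ comparisons. The median difference of the 6 markers other than Thy1 was 0.25 and 0.47 in the Thy steps and 0.46 and 0.62 in the 6C3 steps, each pair given for CD105+ and then CD105- cells. Over all genes these medians were -0.02, 0.13, 0.00 and 0.07. When the 2 arrays whose titles say Thy+ were grouped by title, which leaves 1 array of Thy-6C3+CD105- cells, no marker was called in the 6C3 step of CD105- cells and Thy1 alone in the Thy+ against 6C3+ comparison of CD105- cells. Across the 9 comparisons 15 marker differences were called. They include Thy1 in both Thy steps and in both Thy+ against 6C3+ comparisons, differences that follow from the sort. Fitted within the 11 arrays with high control transcripts and within the 7 with low ones, all 15 kept their sign. Most of those other than Thy1 lost the call in each set. The low set holds 1 array of each population but the triple-negative one, which has 2, and the high set 1 triple-negative array, so these fits assume that a lone array varies like the other populations. With these 2 sets of arrays as a block in the fit, 15 passed.

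**Figure D2:**
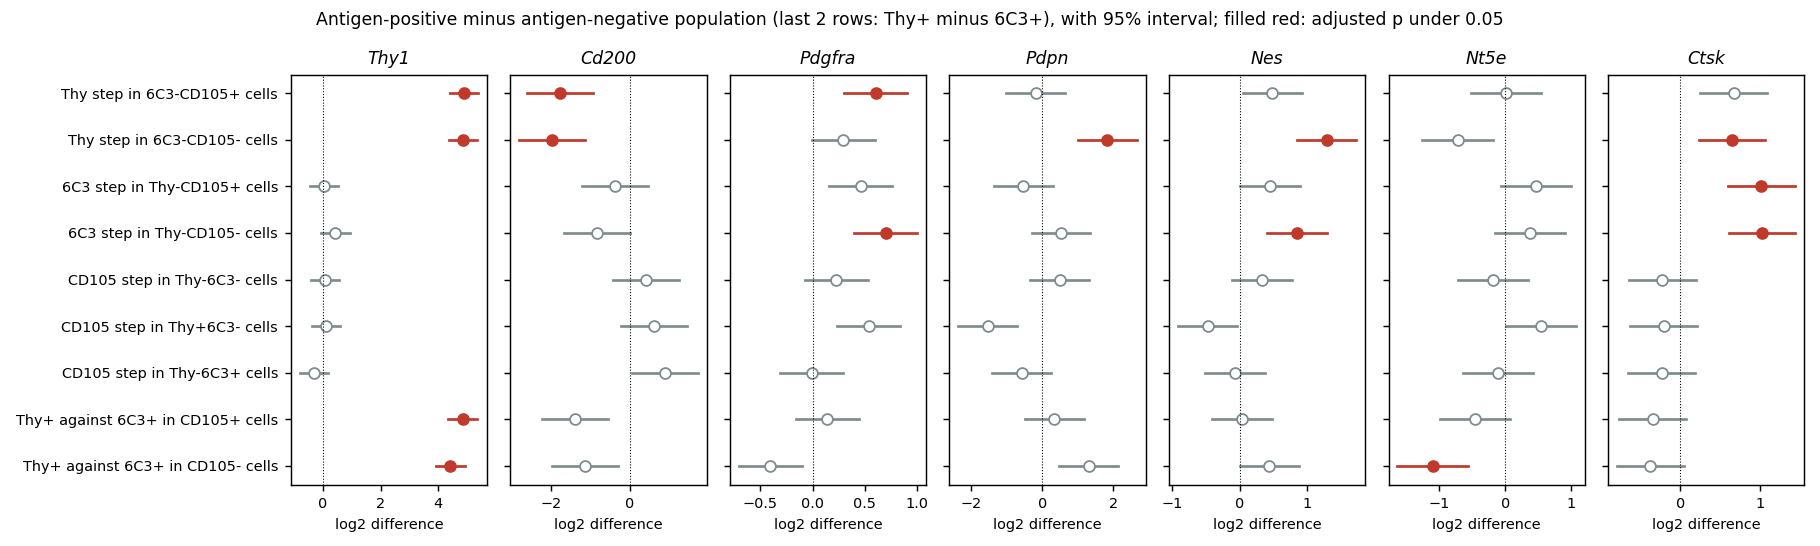
Log2 difference (horizontal axis, a scale of its own in each panel) of each marker in 9 comparisons (rows), antigen-positive minus antigen-negative population or, in the last 2 rows, Thy+ minus 6C3+, with 95% intervals and filled red points at an adjusted p under 0.05. Cd200 lies below 0 in both Thy steps, Ctsk lies above 0 in all 4 Thy and 6C3 steps, and no point is filled in the CD105 steps.

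Promoter sequences are shown for the 3 markers that were called together in the 6C3 step of Thy-CD105- cells, Ctsk, Nes and Pdgfra, and for Cd200, which fell in both Thy steps. They are RefSeq windows on GRCm38.p6 from 250 bases before to 50 bases after the annotated start, on the gene's strand. For Pdgfra and Cd200 the start behind the window lies inside the gene interval given with the levels, so it is not that interval's first transcribed base. Capitals mark matches to the GC box GGGCGG or the SOX core ACAAT on either strand.
Ctsk, chr3:95498960-95499259 (+): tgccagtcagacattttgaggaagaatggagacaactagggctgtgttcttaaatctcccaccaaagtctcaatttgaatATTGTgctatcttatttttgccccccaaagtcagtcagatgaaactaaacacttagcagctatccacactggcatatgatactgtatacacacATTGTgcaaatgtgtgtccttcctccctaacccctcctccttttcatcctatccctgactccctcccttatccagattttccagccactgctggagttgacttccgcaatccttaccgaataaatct
Nes, chr3:87970843-87971142 (+): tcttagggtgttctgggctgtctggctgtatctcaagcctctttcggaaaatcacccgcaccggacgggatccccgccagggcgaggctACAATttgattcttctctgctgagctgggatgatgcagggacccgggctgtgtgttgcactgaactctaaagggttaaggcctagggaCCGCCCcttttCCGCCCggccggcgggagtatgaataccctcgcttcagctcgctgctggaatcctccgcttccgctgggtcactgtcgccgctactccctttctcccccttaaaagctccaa
Pdgfra, chr5:75152001-75152300 (+): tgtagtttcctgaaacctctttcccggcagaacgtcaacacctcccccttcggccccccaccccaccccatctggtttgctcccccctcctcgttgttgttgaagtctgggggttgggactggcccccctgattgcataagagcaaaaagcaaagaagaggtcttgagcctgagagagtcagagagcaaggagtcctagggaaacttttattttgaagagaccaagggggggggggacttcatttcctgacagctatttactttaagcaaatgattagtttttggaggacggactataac
Cd200, chr16:45409004-45409303 (-): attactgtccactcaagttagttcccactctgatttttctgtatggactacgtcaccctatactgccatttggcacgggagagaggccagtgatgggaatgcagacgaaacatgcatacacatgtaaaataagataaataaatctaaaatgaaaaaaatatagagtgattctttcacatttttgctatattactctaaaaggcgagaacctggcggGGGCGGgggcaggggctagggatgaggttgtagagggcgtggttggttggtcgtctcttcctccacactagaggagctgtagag
The 3 genes that rose together did not share a motif among those searched. Ctsk held 2 SOX cores, Nes held 2 GC boxes and a SOX core, and Pdgfra held no match. Of the 6 markers with a promoter in the table, 4 had a GC box, against 35.7% of 32851 promoters of 300 bases, and 3 had a SOX core, against 31.0%. The TATA box TATAAA (13.6% of all promoters), the CCAAT box CCAAT (37.4%) and the RUNX core TGTGGT (16.8%) were searched on both strands too and had no match in any of these 6 windows. No 2 matches of different motifs overlapped. These matches describe letters and say nothing of binding.

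Thy1 (probe set 1423135_at, chr9:44043384-44048579) encodes Thy-1, a small glycoprotein held on the membrane by a lipid anchor, and was the antigen of the sort, so its difference checks the labels. Its levels were 10.37, 10.47 and 10.19 in Thy+6C3-CD105+ cells, against 4.96, 5.52 and 5.91 in Thy-6C3-CD105+ cells. In CD105- cells they were 10.38, 10.31 and 9.99 in Thy+6C3-CD105- cells, against 5.46, 5.39 and 5.27 in Thy-6C3-CD105- cells. The Thy step was 4.88 ± 0.23 (SE) and 4.85 ± 0.23, 29.5-fold and 28.9-fold, with adjusted p = 1.67e-09 and 9.27e-10. The 6C3+ populations lay with the Thy- ones, at 5.31, 5.89 and 5.31 in Thy-6C3+CD105+ cells and 5.71, 5.78 and 5.95 in Thy-6C3+CD105- cells. The last 2 of these values belong to the arrays whose titles say Thy+, and both lie below every array of the Thy+ populations. Among the Thy-1 partners Itgav, Itgb3, Itgam, Itgb2 and Sdc4, which encode integrin subunits and a syndecan that bind Thy-1, Itgb3 alone was called, higher by 1.17 ± 0.23 and 1.37 ± 0.23 in the Thy steps (adjusted p = 0.00323 and 7.3e-04).

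Cd200 (probe set 1448788_at, chr16:45382111-45409060) fell in both Thy steps. It stood at 7.30, 7.43 and 7.50 in Thy+6C3-CD105+ cells, against 9.29, 9.06 and 9.18 in Thy-6C3-CD105+ cells. In CD105- cells it stood at 7.37, 6.96 and 6.02 in Thy+6C3-CD105- cells, against 9.09, 8.67 and 8.49 in Thy-6C3-CD105- cells. The arrays of the populations did not overlap in either step, as for 26.2% and 34.7% of all genes. The differences were -1.77 ± 0.40 and -1.97 ± 0.40, or 3.40-fold and 3.91-fold lower, with adjusted p = 0.00927 and 0.00323.

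Levels of Cd200 in the 6C3+ populations were 9.19, 8.99 and 8.23 (Thy-6C3+CD105+) and 8.20, 6.83 and 8.73 (Thy-6C3+CD105-). Their 6C3 steps, -0.37 ± 0.40 and -0.83 ± 0.40, did not pass (adjusted p = 1 and 0.365). Without replicate 2 of Thy-6C3+CD105- cells the second of these was -0.29, and without replicate 3 it was -1.24 (adjusted p = 0.732 and 0.161). Replicate 2, at 6.83, was the lowest of its population and is also the array with the highest deposited median. It decided the direct comparison of Thy+6C3-CD105- with Thy-6C3+CD105- cells, which was -1.13 ± 0.40 with adjusted p = 0.156, and was -1.68 with adjusted p = 0.0197 without that array. In CD105+ cells the Thy+ against 6C3+ difference was -1.40 ± 0.40 with adjusted p = 0.0877, and it passed when any of 3 arrays of other populations was left out of the shared fit: Thy-6C3+CD105- replicate 2 (0.0164), Thy+6C3-CD105- replicate 3 (0.0393) or Thy-6C3+CD105- replicate 3 (0.0468). On the values as deposited it passed as well (-1.40, adjusted p = 0.032).

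Cartilage and bone genes were lower in the same steps. Of 19 chondrocyte genes 19 fell in each Thy step, with a mean over the list of 9.27 to 9.73 on the arrays of Thy+6C3-CD105+ cells, against 12.12 to 12.22 in Thy-6C3-CD105+ cells. Of 9 osteoblast genes 3 fell and 1 rose in the Thy step of CD105+ cells and 5 fell in that of CD105- cells. Those that fell included Ibsp (-4.37 ± 0.82 and -5.11 ± 0.82), the gene of bone sialoprotein, and Smpd3 (-3.28 ± 0.26 and -3.65 ± 0.26), that of a sphingomyelinase needed for bone mineral. The gene that rose was Col1a1 (1.24 ± 0.32), that of type I collagen. The osteoblast list mean was 7.53 to 7.59 in Thy+6C3-CD105+ cells, against 8.68 to 8.95 in Thy-6C3-CD105+ cells. In the 6C3 steps, where Cd200 was not called, 8 and 11 chondrocyte genes fell and the list mean was 10.28 to 10.62 in Thy-6C3+CD105+ cells and 10.02 to 10.35 in Thy-6C3+CD105- cells. The defining cartilage gene Col2a1 had population means of at least 11.22. The part of these cells in the Cd200 difference was not tested. The CD200 receptor gene Cd200r1 had population means between 5.10 and 5.42 and was not called in any comparison.

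Pdgfra (probe set 1421917_at, chr5:75151322-75198206) encodes PDGF receptor alpha and changed by small amounts with little spread. It stood at 12.17, 12.14 and 12.17 in Thy+6C3-CD105+ cells, against 11.61, 11.57 and 11.47 in Thy-6C3-CD105+ cells, a step of 0.61 ± 0.14, 1.52-fold (adjusted p = 0.0123). In the 6C3 step of CD105- cells it stood at 11.82, 12.17 and 12.09 in Thy-6C3+CD105- cells, against 11.33, 11.37 and 11.27 in Thy-6C3-CD105- cells, a step of 0.70 ± 0.14, 1.63-fold (adjusted p = 0.00947). Neither pair of populations overlapped, as for 26.2% and 17.6% of all genes in these steps. The Thy step did not pass without Thy-6C3-CD105+ replicate 3 (adjusted p = 0.0709) or Thy+6C3-CD105+ replicate 3 (0.0528), with medians alone aligned (0.72, 0.0622) or as the mean of its 3 probe sets (0.43, 0.345). The 6C3 step did not pass on the values as deposited (0.65, adjusted p = 0.103), with medians alone aligned (0.47, 0.348) or as the mean of the probe sets (0.69, 0.112).

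The other 2 Pdgfra steps did not pass. Thy+6C3-CD105- cells had 11.68, 11.86 and 11.32, giving a Thy step of 0.30 ± 0.14 (adjusted p = 0.148). Thy-6C3+CD105+ cells had 12.15, 11.95 and 11.95, giving a 6C3 step of 0.46 ± 0.14 (adjusted p = 0.172). Replicate 3 of Thy+6C3-CD105- cells, the lowest of its population at 11.32, bore on both: without it the Thy step passed at 0.44 (adjusted p = 0.0393) and the 6C3 step at 0.46 (0.0481). Without replicate 2 of the same population the Thy step was 0.18 (adjusted p = 0.411). Its sign turned on the values as deposited (-0.06, adjusted p = 0.834), with medians alone aligned (-0.20, 0.507) and as the mean of the probe sets (-0.07, 0.825), so no direction is given for it. In Thy+6C3- cells the CD105 step was 0.54 ± 0.14 (adjusted p = 0.0816). Its arrays did not overlap, as for 24.8% of all genes in that step. The step passed without Thy+6C3-CD105- replicate 2 (0.66, adjusted p = 0.0424) and on the values as deposited (0.89, 0.0287). Over the fits that left out 1 array, it ran from 0.39 to 0.66. The 2 other probe sets of Pdgfra, 1438946_at and 1421916_at, correlated with the one used here at r = 0.54 and 0.33 over the 18 arrays. In the Thy step of CD105+ cells they differed by 0.68 ± 0.64 and 0.00 ± 0.36, and in that of CD105- cells by -0.97 ± 0.64 and 0.45 ± 0.36. In the CD105 step of Thy+6C3- cells they differed by 1.67 ± 0.64 and -0.16 ± 0.36. Probe set 1438946_at stood at 8.34, 7.46 and 4.43 on replicates 1, 2 and 3 of Thy+6C3-CD105- cells.

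Of the 6 genes for PDGF ligands and receptors, 3 rose in the Thy step of CD105+ cells and none fell: Pdgfra, Pdgfrb, the gene of the beta receptor (1.52 ± 0.44, adjusted p = 0.0482, and 0.0643 on the values as deposited), and Pdgfd, the gene of a beta receptor ligand (2.33 ± 0.45, adjusted p = 0.00245). Pdgfd also rose in the CD105 step of Thy+6C3- cells (2.05 ± 0.45, adjusted p = 0.0339), a call that was lost without the 2 arrays with the highest medians (1.69, 0.0901). Pdgfa, Pdgfb and Pdgfc, the genes of the ligand chains that bind the alpha receptor or both receptors, were not called in any comparison. The median of these 6 genes was 0.48 in the Thy step of CD105+ cells, against -0.02 over all genes. Pericyte genes moved in the same step: 9 of 12 rose and 1 fell, among them Notch3 (3.60 ± 0.42) and Rgs5 (3.36 ± 0.27), with a list mean of 9.45 to 9.64 on the arrays of Thy+6C3-CD105+ cells, against 7.75 to 8.08 in Thy-6C3-CD105+ cells. Of 13 endothelial genes 4 rose in that step: Esam (2.32 ± 0.18), Sox18 (1.43 ± 0.32), Tek (1.11 ± 0.17) and Flt1 (1.05 ± 0.24). Their list mean was 5.73 to 5.98 in Thy+6C3-CD105+ cells, against 5.20 to 5.73 in Thy-6C3-CD105+ cells. Some tendon and fibrous genes rose in both steps in which Pdgfra was called, and also in the other Thy and 6C3 steps, in which Pdgfra was not called. In the Thy step of CD105+ cells these were 8 of 12, among them Kera (3.02 ± 0.26) and Dpt (2.41 ± 0.32), with a list mean of 10.97 to 11.17 in Thy+6C3-CD105+ cells, against 9.52 to 9.86 in Thy-6C3-CD105+ cells. In the 6C3 step of CD105- cells 4 of 12 rose, Thbs4 (1.76 ± 0.26), Dpt (1.66 ± 0.32), Kera (1.09 ± 0.26) and Col14a1 (0.97 ± 0.14), with a list mean of 10.24 to 10.62 in Thy-6C3+CD105- cells, against 9.61 to 9.71 in Thy-6C3-CD105- cells. None of the 12 pericyte and 13 endothelial genes was called in that 6C3 step. The part of these genes' cells in the Pdgfra and Pdgfrb differences was not tested.

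Pdpn (probe set 1419309_at, chr4:143267409-143299564) encodes podoplanin, a mucin-type glycoprotein that binds the platelet receptor CLEC-2. It stood at 11.23, 10.58 and 10.69 in Thy+6C3-CD105- cells, against 8.82, 9.10 and 9.07 in Thy-6C3-CD105- cells. The levels of Thy+6C3-CD105- cells were the highest 3 of the 18 neonatal ones, and the Thy step was 1.83 ± 0.39, 3.57-fold (adjusted p = 0.00446). In CD105+ cells Pdpn had 9.86, 9.10 and 8.93 in Thy+6C3-CD105+ cells, against 8.57, 10.09 and 9.78 in Thy-6C3-CD105+ cells. There the arrays overlapped and the difference was -0.19 ± 0.39 (adjusted p = 0.908).

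The test of the difference between these 2 Thy steps of Pdpn did not pass (-2.02 ± 0.55, unadjusted p = 0.00188 and adjusted p = 0.155 in limma, where 0.269% of all genes passed). Without Thy-6C3-CD105+ replicate 1, which at 8.57 was the lowest of its population, it was -2.48 with adjusted p = 0.0438. Within Thy+6C3- cells the CD105 step was -1.54 ± 0.39 with adjusted p = 0.0706. Its arrays did not overlap, as for 24.8% of all genes in that step. The step passed when Thy-6C3-CD105+ replicate 1 (0.0367) or Thy-6C3+CD105- replicate 3 (0.047) was left out of the fit. The 6C3+ populations, at 8.40, 8.71 and 9.74 (CD105+) and 9.21, 9.28 and 10.10 (CD105-), lay among the rest. Neither 6C3 step was called.

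Lists of several other cell types, some of which make podoplanin, had their highest mean where Pdpn was highest. The erythroid and skeletal muscle means were highest there too, at 5.30 and 5.45, against 4.94 to 5.10 and 5.03 to 5.20 elsewhere. So were the endothelial (5.85) and osteoclast (5.70) means, by less. The pericyte list and the Schwann and neural list were highest in other populations. In the Thy step of CD105- cells 10.5% of all genes were called higher. Of 8 keratinocyte genes 3 rose in the Thy step of CD105- cells, Krt15 (2.75 ± 0.45), Krt5 (2.31 ± 0.25) and Krt14 (2.09 ± 0.27). The list mean was 5.98 to 6.40 on the arrays of Thy+6C3-CD105- cells, against 5.18 to 5.30 in Thy-6C3-CD105- cells. Of 10 myeloid genes 3 rose, Laptm5 (2.29 ± 0.45), Csf1r (1.21 ± 0.35) and Adgre1 (0.63 ± 0.20), and of 6 T cell genes 3 rose, Cd3e (0.93 ± 0.25), Cd8a (0.92 ± 0.29) and Cd4 (0.88 ± 0.24). The myeloid and T cell list means were 5.85 to 6.25 and 5.86 to 6.42 in Thy+6C3-CD105- cells, against 5.48 to 5.69 and 5.29 to 5.56 in Thy-6C3-CD105- cells. Their part in the Pdpn difference was not tested. Without the 2 arrays with the highest medians, the calls of Krt15 (2.88), Krt5 (2.11), Krt14 (2.25), Laptm5 (2.17) and Pdpn (1.90) held. Those of Csf1r (1.14, adjusted p = 0.0635), Adgre1 (0.51, 0.0968), Cd3e (0.76, 0.0753), Cd8a (0.65, 0.149) and Cd4 (0.72, 0.0782) were lost, with the same sign. Of 4 lymphatic endothelial genes, Reln rose (0.90 ± 0.29, adjusted p = 0.0421), and the list mean was 5.41 to 5.64 in Thy+6C3-CD105- cells, against 5.24 to 5.34 in Thy-6C3-CD105- cells. The defining lymphatic markers Prox1 and Lyve1 had population means between 4.30 and 4.79 and were not called. Among the partners of CD200 and podoplanin, Ezr, the gene of the membrane linker ezrin, rose in the same Thy step (1.06 ± 0.31, adjusted p = 0.0264). Without those 2 arrays Ezr did not pass (0.87, adjusted p = 0.085), and Clec1b, the gene of CLEC-2, was not called in any comparison.

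Nes (probe set 1449022_at, chr3:87971093-87980451) rose in the Thy step and in the 6C3 step of CD105- cells. It stood at 8.41, 8.42 and 8.93 in Thy+6C3-CD105- cells and at 7.96, 8.17 and 8.30 in Thy-6C3+CD105- cells, against 7.39, 7.35 and 7.13 in Thy-6C3-CD105- cells. The triple-negative arrays were below all 6 of the others. A lack of overlap held for 34.7% of all genes in this Thy step and for 17.6% in this 6C3 step. The Thy step was 1.29 ± 0.21, 2.45-fold (adjusted p = 5.08e-04), and the 6C3 step 0.85 ± 0.21, 1.80-fold (adjusted p = 0.0351). A separate Nes probe set, 1418289_at, passed in the Thy step too, by 1.08 ± 0.27 with adjusted p = 0.0167 over all probe sets, and correlated with the one used here at r = 0.81 over the 18 arrays. The 6C3 call was less firm: it did not pass as the mean of the 3 probe sets (0.63, adjusted p = 0.0819), or when any of 7 arrays was left out. These were each replicate of Thy-6C3-CD105-, replicates 2 and 3 of Thy-6C3+CD105- and replicates 2 and 3 of Thy+6C3-CD105+, with differences of 0.77 to 0.90 and adjusted p of 0.0509 to 0.140.

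In CD105+ cells Nes had 8.30, 8.04 and 8.0 in Thy+6C3-CD105+ cells and 7.80, 8.34 and 8.09 in Thy-6C3+CD105+ cells, against 7.36, 7.62 and 7.89 in Thy-6C3-CD105+ cells. The Thy+ arrays lay above those of Thy-6C3-CD105+ cells, a lack of overlap found for 26.2% of all genes. The 6C3+ arrays overlapped with those of Thy-6C3-CD105+ cells. Neither step passed (0.49 ± 0.21, adjusted p = 0.242, and 0.45 ± 0.21, adjusted p = 0.63). With medians alone aligned the Thy step passed (0.61, adjusted p = 0.0357). The difference between the Thy steps of Nes was -0.81 ± 0.30 (limma, adjusted p = 0.237).

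Nestin assembles with other intermediate filament proteins, above all vimentin. Of 6 genes for such partners, 3 rose in each Thy step and none fell: Prph, the gene of peripherin (1.83 ± 0.26 and 2.58 ± 0.26), Synm, that of synemin (1.01 ± 0.26 and 0.78 ± 0.26), and Vim (0.96 ± 0.16 and 0.73 ± 0.16). The list median was 0.80 and 0.68 in these steps, against -0.02 and 0.13 over all genes. On the values as deposited, Vim and Synm did not pass in CD105- cells (0.50 and 0.70, adjusted p = 0.073 and 0.0857). Of 6 Schwann and neural genes, 1 rose (Erbb3) and 1 fell (S100b, which cartilage also expresses) in the Thy step of CD105+ cells, and 2 rose (Erbb3 and Ngfr) and 1 fell (S100b) in that of CD105- cells, where the list median was 0.80. Their list mean was 6.54 to 6.79 in Thy+6C3-CD105- cells, against 6.54 to 6.83 in Thy-6C3-CD105- cells. The defining neural gene Sox10 was not called in these steps. The list mean of the 12 pericyte genes was 7.91 to 8.02 in Thy+6C3-CD105- cells, where Nes was highest, against 7.80 to 7.95 in Thy-6C3-CD105- cells. It was 9.45 to 9.64 in Thy+6C3-CD105+ cells, against 7.75 to 8.08 in Thy-6C3-CD105+ cells. The Nes step between these populations was 0.49 ± 0.21 (limma, adjusted p = 0.242). The part of pericytes and neural cells in the Nes differences was not tested.

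Nt5e (probe set 1428547_at, chr9:88327609-88372089) was called in 1 comparison. It stood at 8.99, 9.62 and 9.65 in Thy+6C3-CD105- cells, against 10.58, 10.57 and 10.42 in Thy-6C3+CD105- cells, a difference of -1.10 ± 0.25, 2.15-fold lower (adjusted p = 0.0264). It did not pass without Thy+6C3-CD105- replicate 1 (-0.89, adjusted p = 0.0765), Thy-6C3+CD105- replicate 1 (-1.08, 0.0675) or Thy-6C3+CD105- replicate 2 (-1.08, 0.10). The other probe sets of Nt5e, 1422974_at and 1459023_at, differed there by 0.13 ± 0.29 and 0.26 ± 0.26, and correlated with the one used here at r = 0.17 and -0.28. The probe sets of Nt5e thus gave different directions, and the result belongs to the one with the highest mean; the mean of the 3 probe sets differed by -0.24 (adjusted p = 0.563).

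Elsewhere Nt5e had 9.76, 10.09 and 10.02 in Thy+6C3-CD105+ cells, 10.48, 10.58 and 10.19 in Thy-6C3+CD105+ cells, 10.22, 9.68 and 9.95 in Thy-6C3-CD105+ cells, and 9.85, 9.75 and 10.82 in Thy-6C3-CD105- cells. The arrays of the Thy step in CD105- cells did not overlap, as for 34.7% of all genes there. The step was -0.72 ± 0.25 with adjusted p = 0.0557. Arrays of the triple-negative cells moved it both ways: it passed without their replicate 2 (-0.92, adjusted p = 0.0342) and shrank without their replicate 3 (-0.39, 0.266). It passed on the values as deposited (-1.11, adjusted p = 0.0142), and as the mean of the 3 probe sets of Nt5e its sign turned (0.14, 0.651). The other 2 probe sets, 1422974_at and 1459023_at, differed by 0.50 ± 0.29 and 0.64 ± 0.26 in that step, opposite in sign to the one used. Among 11 genes of the extracellular adenosine pathway, those that rose in the Thy step of CD105+ cells were Dpp4 (2.02 ± 0.25), the gene of the peptidase that anchors adenosine deaminase in human cells, Entpd1 (1.25 ± 0.22), that of CD39, which makes the AMP used by CD73, and Entpd2 (1.02 ± 0.21), that of a related ectonucleotidase. None fell in that step. In CD105- cells Dpp4 (1.41 ± 0.25) and Entpd2 (1.12 ± 0.21) rose and Slc29a1, the gene of a nucleoside transporter, fell by 1.06 ± 0.35 on the log2 scale. The list medians were 0.01 and -0.13, against -0.02 and 0.13 over all genes.

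Ctsk (probe set 1450652_at, chr3:95499210-95509387) rose in both 6C3 steps. It stood at 12.31, 12.29 and 12.44 in Thy-6C3+CD105+ cells, against 11.30, 11.68 and 11.01 in Thy-6C3-CD105+ cells, and at 12.29, 12.88 and 12.60 in Thy-6C3+CD105- cells, against 11.45, 11.56 and 11.66 in Thy-6C3-CD105- cells. The 6 arrays with 6C3 lay above the 6 without. Within a step, a lack of overlap held for 16.3% (CD105+) and 17.6% (CD105-) of all genes. The steps were 1.02 ± 0.20 and 1.03 ± 0.20, 2.03-fold and 2.04-fold, with adjusted p = 0.0123 and 0.00623, and their difference was -0.01 ± 0.28 with a 95% interval from -0.60 to 0.59. In CD105+ cells it did not pass without Thy-6C3+CD105+ replicate 2 (1.05, adjusted p = 0.0539) or 3 (0.97, 0.0695), or without Thy-6C3-CD105+ replicate 1 (1.0, 0.0567) or 3 (0.86, 0.106). In CD105- cells it was lost with medians alone aligned (0.78, adjusted p = 0.0837).

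Ctsk was also higher on every Thy+ array than on the arrays of the matching Thy- population. Such a lack of overlap held for 26.2% and 34.7% of all genes in the CD105+ and CD105- steps. Ctsk stood at 11.81, 11.98 and 12.21 in Thy+6C3-CD105+ cells and at 11.78, 12.37 and 12.47 in Thy+6C3-CD105- cells. The Thy steps were 0.67 ± 0.20 and 0.65 ± 0.20, with adjusted p = 0.0539 and 0.0336. The step in CD105+ cells missed the threshold and passed without Thy-6C3-CD105+ replicate 2 (0.84, adjusted p = 0.0225) or without any of 4 arrays of other populations: Thy+6C3-CD105- replicate 1 (0.0257) or 3 (0.0322), or Thy-6C3+CD105- replicate 1 (0.0437) or 2 (0.0428). The call in CD105- cells was lost without any of 5 arrays, each replicate of Thy-6C3-CD105- and replicates 2 and 3 of Thy+6C3-CD105- (0.52 to 0.70, adjusted p of 0.0644 to 0.133). It depended on the scaling, with 0.36 (adjusted p = 0.232) on the values as deposited and 0.22 (0.478) with medians alone aligned. The direct Thy+ against 6C3+ differences, -0.35 ± 0.20 and -0.38 ± 0.20, did not pass (adjusted p = 0.865 and 0.326).

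Of 13 genes for cysteine cathepsins and their inhibitors, Ctsk was the gene called in the 6C3 steps. In the Thy steps, beside Ctsk itself, Ctsc, the gene of a protease-activating cathepsin, rose in CD105+ cells (1.73 ± 0.44, adjusted p = 0.0195), and Ctsz, that of cathepsin Z, fell by 1.35 ± 0.34 in CD105- cells (adjusted p = 0.0127). Of 9 osteoclast genes other than Ctsk, 1 rose in each Thy step (Itgb3) and 1 in the 6C3 step of CD105+ cells (Mmp9, 1.16 ± 0.25, adjusted p = 0.0226). The defining markers Acp5 and Ocstamp were not called, with population means of 6.52 to 6.99 for Acp5 and of 5.04 to 6.08 for Ocstamp. The osteoclast list mean was 5.41 to 5.83 in Thy-6C3+CD105+ cells, against 5.31 to 5.49 in Thy-6C3-CD105+ cells, and 5.66 to 5.72 in Thy-6C3+CD105- cells, against 5.29 to 5.40 in Thy-6C3-CD105- cells. The part of osteoclasts in the Ctsk difference was not tested. Tendon and fibrous genes moved in the same direction as Ctsk: 2 and 4 of 12 rose in the 6C3 steps, 8 and 8 in the Thy steps, and none fell.

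**Figure D3:**
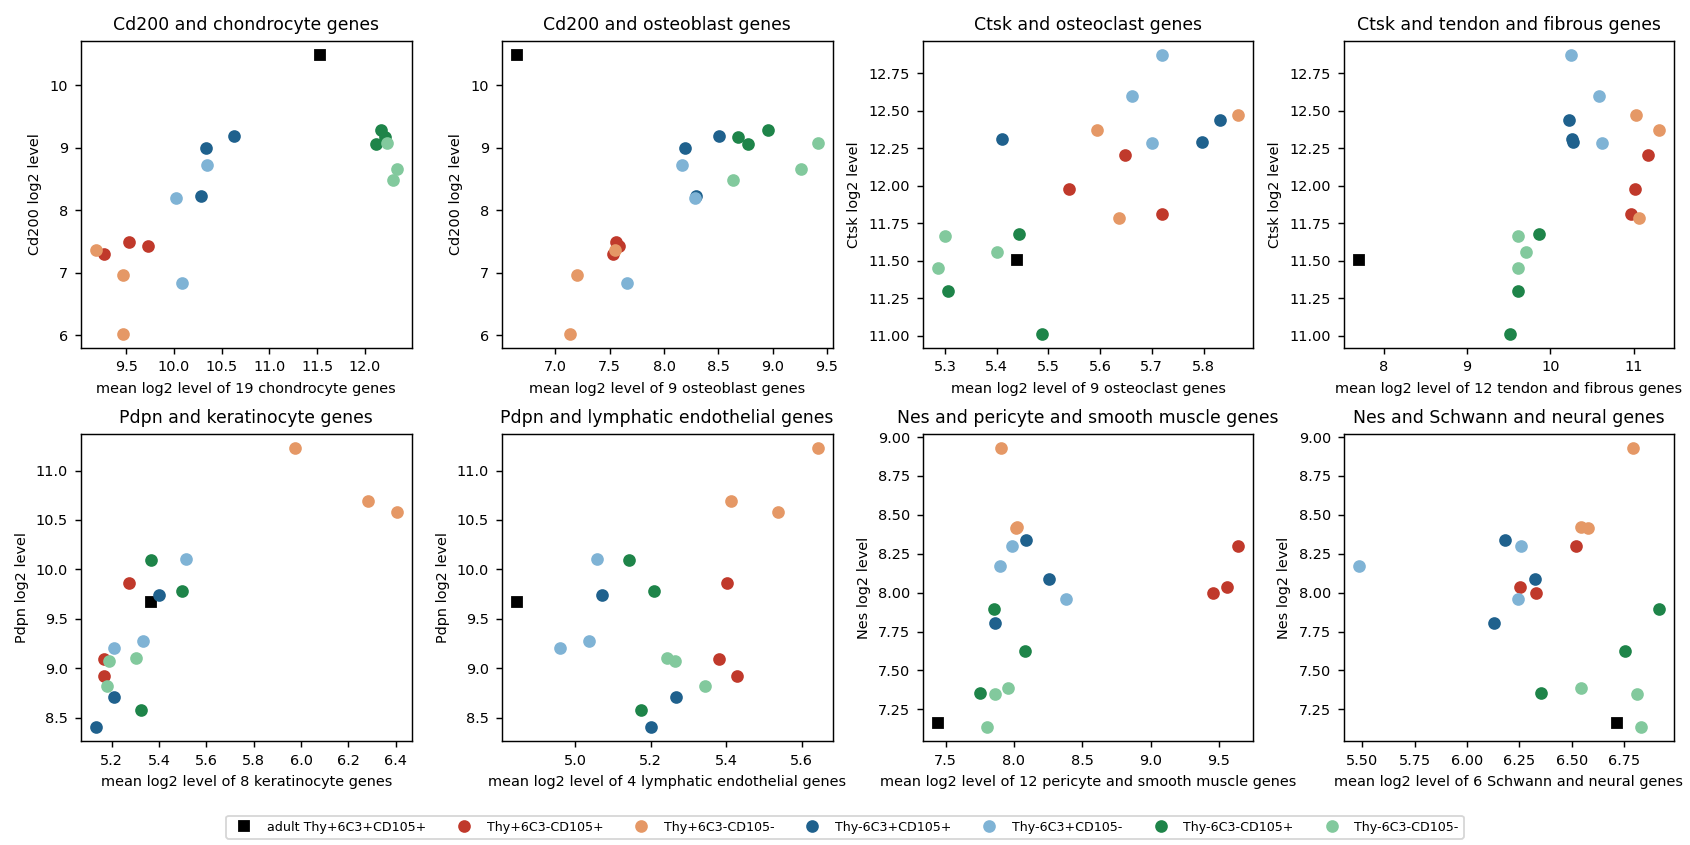
Log2 level of 4 markers (vertical axes) against the mean log2 level of the measured genes of a cell type list (horizontal axes) on the 19 arrays, coloured by population, with a square for the adult array. Among the neonatal populations, Cd200 and cartilage genes both have their lowest means in the Thy+ ones. The chondrocyte list means are 10.41 in Thy-6C3+CD105+, 10.15 in Thy-6C3+CD105- and 12.28 in triple-negative cells. The Cd200 means, in the same order, are 8.81, 7.92 and 8.75. The part of cartilage cells in the Cd200 differences was not tested. The 3 Thy+6C3-CD105- arrays are highest both for Pdpn and for keratinocyte genes. On the neonatal arrays the osteoclast list mean spans 5.29 to 5.87 and Ctsk spans 11.01 to 12.88. The part of osteoclasts in the Ctsk differences was not tested.

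Other genes used to mark skeletal progenitors rose mainly in the Thy steps. Of 23 measured, 10 rose and 1 fell in CD105+ cells and 9 rose and 1 fell in CD105- cells, while none was called in either 6C3 step. The gene that fell was Sox9, the cartilage regulator (-2.75 ± 0.44 and -2.82 ± 0.44). In CD105+ cells the largest rises were those of Lepr (3.21 ± 0.78), the gene of the leptin receptor that marks marrow stroma, Acta2 (2.43 ± 0.24), that of smooth muscle actin, which is in the pericyte list too, and Cxcl12 (2.39 ± 0.27), that of a stromal chemokine. In CD105- cells they were those of Cd34 (1.66 ± 0.22), Cd44 (1.65 ± 0.34), the gene of a hyaluronan receptor, and Dpp4 (1.41 ± 0.25). The list median was 0.64 and 0.48, against -0.02 and 0.13 over all genes. In CD105- cells the split depended on the scaling, with 6 higher and 3 lower on the values as deposited and 3 higher and 3 lower with medians alone aligned. Of 8 measured genes of the Ly6 family other than Ly6a, Lypd6 was the gene called in the Thy and 6C3 steps, higher by 0.82 ± 0.21 in the Thy step of CD105+ cells (adjusted p = 0.0199).

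The markers resembled different genes. Likeness was measured as Pearson's r over the 18 neonatal arrays, among genes above the median gene mean of 6.76, and is a description: the arrays share populations and the genes were picked as the highest of many. Thy1 was most like Prss12 (r = 0.96), Basp1 and Ptprd (both 0.95). Its levels are divided by the Thy sort, and by rank (Spearman's rho) these values were 0.80, 0.75 and 0.60. In the alternatives, r of Thy1 and Ptprd was as low as 0.86. Cd200 was most like Ibsp (0.96), Crispld1 (0.94) and Sox6 (0.93), genes of bone and cartilage in the case of Ibsp and Sox6. Pdgfra was most like Itih5 (0.92), F2r (0.91) and Gab2 (0.91), and Pdpn most like Ttyh3 (0.92), Atp13a2 (0.92) and Sh3d21 (0.91). For Nes they were Syt11, Itm2c (0.93 each) and Pxmp4 (0.92), for Ctsk they were Faap24 (0.93), Galr2 (0.92) and Dysf (0.91), and for Nt5e they were Nr1d2 (0.87), Col24a1 (0.84) and Vps50 (0.81). With the mean of a gene's probe sets, r of Nt5e and Nr1d2 was 0.35, r of Nt5e and Col24a1 was 0.29, r of Nt5e and Vps50 was 0.14, and r of Pdgfra and Gab2 was 0.35. Over the 2 alternatives run for these values, r of Pdgfra was as low as 0.82 with Itih5 and 0.66 with F2r. It was as low as 0.81 for Pdpn with Atp13a2 and 0.78 for Nes with either Syt11 or Pxmp4. Between markers, r ran from -0.77 for Thy1 with Cd200 to 0.63 for Thy1 with Nes.

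On the adult array Cd200 stood at 10.49, which was 1.21 above the highest of the 18 neonatal arrays. Pdgfra stood at 10.34 there, 0.93 below the lowest neonatal array. The levels of the other 5 markers lay within the neonatal ranges: Thy1 at 8.77, Pdpn at 9.67, Nes at 7.16, Nt5e at 9.65 and Ctsk at 11.50. Thy1 lay between the levels of the Thy+ and the Thy- arrays. The list mean of chondrocyte genes was 11.53 on the adult array, within the neonatal range of 9.18 to 12.33, and that of osteoblast genes was 6.64, below the neonatal range of 7.13 to 9.41. Age, tissue source and antigen state cannot be told apart on this array, and the difference has no replicate check.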

How the data were processed

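The deposited value table of the series held 45101 probe sets on 19 Affymetrix arrays, and its values, per the labels' hybridization and scan protocols, come from scanned single-colour arrays. From the deposited values, which run from 2.55 to 14.6, the scale is log2; for how the authors summarised and normalized them, the step is not stated in the labels. Control probe sets (64) were left out. Probe sets were named from the platform annotation, in which 34945 carry 1 gene symbol, 932 several and 9160 none, and several or none were not used. Because deposited medians differed by more than 0.1, arrays were quantile normalized. Each gene was represented by its probe set with the highest mean. Populations were compared in limma 3.58.1 (lmFit and eBayes with trend, R 4.3.3) over the 18 neonatal arrays, in 1 fit with a mean for each population, 12 residual and 5.38 prior degrees of freedom, moderated F-test for all populations, two-sided, with Benjamini-Hochberg adjustment over 18193 genes. The script was tested on simulated data.

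Groups follow the population field. Replicate numbers in the titles do not pair samples by label, and deviations of same-numbered arrays from their population means correlated at a median r of -0.016 over 45 pairs, so the main design has no replicate block. Arrays were divided into control-transcript sets at a level of 6.203 of 24 poly-A control probe sets. Alternatives were the scaling, the filter on low genes, the probe set rule, the variance model, both blocks, the grouping by title and leaving out each array; the fit without the 2 arrays with the highest medians was chosen after seeing the data. The markers, the gene lists (217 genes, 198 measured) and the tests were chosen with earlier results of these data known. Named were all markers, the 3 genes most like each, up to 4 called genes per list and comparison by size of the change, and the sorted antigens and defining cell type markers. Promoters are from RefSeq, GRCm38.p6, matched by symbol for 6 of the 8 markers. Scripts used Python 3.11.15, pandas 2.3.3, numpy 2.4.6 and matplotlib 3.10.9.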

Additional observations from a re-analysis of the deposited data

How the results depend on the processing

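Of the 15 called marker differences, which include those of Thy1, an antigen of the sort, none changed sign in any of the 32 alternatives run. Of their 480 alternative values 60 lost the call, and of 1984 alternative values of the 62 uncalled differences 46 gained one. None of the 60 lost calls was one of Thy1. The count of markers that differ among populations, 6 with Thy1 included, fell to a minority of the markers within the high and the low control-transcript set. The Thy step count became 1 (low set) against 3 in CD105+ cells, and 2 (either set) against 5 in CD105- cells. The 6C3 step count of CD105+ cells, 1, became 2 with array weights or without the 2 arrays with the highest medians, and 0 in the low set. That of CD105- cells, 3, became 1 with medians alone aligned, with the mean of a gene's probe sets, with the compared populations alone or in the high set, and 0 in the low set or grouped by title. The CD105 step count of Thy+6C3- cells, 0, became 1 as deposited, with medians alone aligned or with the control set as a block, and 2 with array weights. The Thy+ against 6C3+ count of CD105+ cells, 1, became 2 as deposited, with array weights, with the compared populations alone or without the 2 arrays. That of CD105- cells, 2, became 1 with the mean of probe sets, with the compared populations alone, within either set or grouped by title. The interaction of Thy and CD105, 0, became 1 with array weights (Pdpn). Apart from the smaller sets of arrays, the causes were not tested.

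Leaving out 1 array gave 5 to 7 markers among populations, 2 to 4 and 4 to 5 in the Thy steps (CD105+, then CD105-), 0 to 2 and 2 to 3 in the 6C3 steps, 0 to 1 in the CD105 step of Thy+6C3- cells and 0 to 0 in the other CD105 steps, 1 to 2 and 1 to 2 for Thy+ against 6C3+, and 0 to 1 and 0 to 0 for the interactions. With the replicate block the Thy step of Ctsk in CD105+ cells passed too (0.67, adjusted p = 0.0303), which made 4 calls there against 3, and no other call of a marker changed. The number of genes called in the background moved more: 3271 in the Thy step of CD105- cells ran from 391 to 4218, 185 in the CD105 step of Thy+6C3- cells ran from 7 to 2567, 1211 in the Thy step of CD105+ cells from 157 to 2889, 247 and 498 in the 6C3 steps from 12 to 652 and from 69 to 786, 471 and 407 for Thy+ against 6C3+ from 92 to 1500 and from 18 to 803, 49 for the interaction of Thy and CD105 from 0 to 645, and 1845 among populations from 336 to 3898. With medians alone aligned, the median difference of all genes was -0.05 against 0.13 in the Thy step of CD105- cells, and 0.15 against -0.08 in the CD105 step of Thy+6C3- cells. Of 319 called differences of listed genes none changed sign as deposited, with medians alone aligned or without the 2 arrays, and 22, 36 and 28 lost the call. Signal over background is not given with these values, so what low signal limits was not measured.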
